A study of Ovis aries with 60 samples.

Results

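Sperm DNA methylation was compared between 10 founder rams (F0) and 20 of their grandsons (F2), every one sequenced individually, at the cytosines of the CG context that were listed for both generations. Matching on chromosome, position and strand left 82155 such cytosines, which were 26.2% of the 313527 listed for F0 and 67.1% of the 122453 listed for F2, or 82155 of the 353825 listed for either. The level of a cytosine is the share of its reads in which it was read as methylated, and every listed cytosine had at least 10 reads in each ram of its generation.

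In mammals a methyl group on the cytosine of a CG dinucleotide is copied to the new strand at each cell division, and most CG of sperm are methylated outside regulatory regions. Male germ cells lose this methylation early in development and gain it anew later. Much of the sperm pattern is thus written afresh in each generation, while some repeats resist the loss. Methylation of cytosines in the CHG and CHH contexts, where H stands for A, C or T, is scarce in mammalian sperm, and its measured level also counts cytosines that the bisulfite step left unconverted.

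The study asked whether a founder's diet is followed by differences in the sperm of his descendants, and the series holds 60 samples of sheep semen from 3 generations. F0 was made of male Polypay twins: 5 rams (F0 T) had a rumen-protected methionine supplement on top of the control diet from weaning to puberty, and their 5 twins (F0 C) had the control diet alone. F2 rams, 10 in the T line and 10 in the C line, were grandsons through 1 F1 sire for each founder, 2 per F0 sire, and ate the control diet, as did all F1 animals. Dams were untreated Polypay ewes. The F1 generation was sequenced as 10 pools of sons, 1 pool per F0 sire, and is given below only to place the other generations. Each T and C pair of founders were twins and each pair of F2 rams shared a sire. The p-values rest on the spread between these rams and take every ram as independent, so they can be too small. The 2 lines stand here as separate looks at one contrast, F0 against F2. Each generation has its own table of cytosines, and generation cannot be told apart from anything else that the samples of one generation had in common.

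Of the shared CG cytosines 74356 lay on assembled chromosomes (489 of them on X) and 7799 on 190 unplaced scaffolds of the Oar_rambouillet_v1.0 assembly. The rams had 2617623 to 3951349 reads on them in F0 and 2902709 to 4351210 in F2, with a median of 24 to 40 and 12 to 41 reads per cytosine. The share of these reads that fell on scaffolds was 8.78% to 25.8% in F0 and 23.7% to 54.6% in F2. No 2 rams had identical values. In 8 rams the scaffold cytosines averaged more than 40% methylated, namely 2 F0 rams (T 23 and C 24) and 6 F2 rams. Of these 6, the 3 of the T line were grandsons of rams 3, 5 and 11, and of the 3 of the C line 1 was a grandson of ram 4 and 2 were those of ram 24, who himself was among the 8. Both grandsons of T 23 were outside the 8, at 29.8% and 30.7%. Of the 10 F1 pools 2 were above 40%, those of rams 23 (49.6%) and 24 (41.4%), on the scaffold cytosines also listed in F1. The other 22 rams lay between 27.6% and 37.1%, and results are given with and without those 8 where it matters. Those 8 were picked on a measured level, and 6 of them were F2 rams, so values without them describe the 22 rams left and p-values from them are not free of that choice. The label sperm was checked in the RNA of the same 20 F2 semen samples, where 9 of 10 spermatid and sperm genes sought were in the table (PRM2 was not), and all 9 were above 0 in every ram. Their summed level was 38.7 to 12229 CPM (counts scaled to the library total), the 8 leukocyte markers summed to 62.7 to 10210, and 5 of 6 epithelial markers to 73.5 to 1605. The 6 F2 rams with high scaffold levels had a lower median sperm sum, 314 CPM (171 to 1084) against 1677 (38.7 to 12229) in the other 14, and a higher median leukocyte sum, 1035 CPM (78.0 to 4546) against 363 (62.7 to 10210). Their median epithelial sum was 240 CPM against 195. The ranges overlapped, these medians were not tested against each other, and the methods give a lysis step against somatic cells for the RNA and none for the DNA, so these sums need not stand for the cells in the DNA. The part of other semen cells in the methylation results was not tested.

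The mean CG level was higher in F2. F0 rams ranged from 70.1% to 73.0% with a median of 71.3%, and F2 rams from 70.7% to 74.5% with a median of 72.8%. The groups overlapped over most of their range. The means were 71.2% ± 0.910 (SD, n = 10) and 72.8% ± 1.05 (SD, n = 20), a difference of 1.54 percentage points (2-sided permutation test with 100000 resamples, p = 0.00066). In the T line the level was 70.9% ± 0.734 (n = 5) in F0 and 72.9% ± 1.22 (n = 10) in F2, 1.99 points higher (exact permutation test, p = 0.00533). In the C line it was 71.6% ± 1.00 (n = 5) and 72.7% ± 0.901 (n = 10), 1.09 points higher (exact permutation test, p = 0.0559). The T line passed the threshold of 0.05 and the C line did not, but with each F0 ram set against the mean of his own grandsons both lines gave p = 0.0625 (exact sign-flip test, the smallest possible with 5 pairs), and the difference between the 2 shifts was 0.897 points and was not past it either (permutation test, p = 0.237). It was 0.544 points without F0 C 24 and 1.25 without F0 C 12. All 10 F0 sires lay below the mean of their own 2 grandsons. On the 72847 cytosines that were listed in F1 too, the pools averaged 71.1% ± 1.17 (n = 10), against 70.9% in F0 (permutation test, p = 0.636) and 72.5% in F2 (p = 0.00582).

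The sign of this difference depended on how cytosines were weighted. When methylated reads were summed over all shared cytosines and divided by all reads, so that deep cytosines counted more, F2 was lower, at 61.0% ± 6.07 against 65.8% ± 3.20, a difference of -4.77 points (permutation test, p = 0.0263). Scaffold cytosines were lowly methylated and deep. Their reads per cytosine were a median 2.31 times as many in F2 as in F0, against 0.878 times on chromosomes. Within each of these regions the summed-read difference was positive, 0.819 points on chromosomes (p = 0.152) and 2.94 points on scaffolds (p = 0.587), and neither passed the threshold. With each cytosine counted once, the chromosomes averaged 75.0% ± 1.05 in F0 and 76.3% ± 1.47 in F2 (1.36 points, p = 0.0133), with a shift of 2.07 points in the T line (exact permutation test, p = 0.0160) and 0.651 points in the C line (exact permutation test, p = 0.351), and the scaffolds averaged 35.6% ± 7.92 and 38.8% ± 13.2 (3.24 points, p = 0.498). Without the 8 rams the chromosome difference was 1.77 points (75.1% to 76.8%, exact permutation test with n = 8 and 14, p = 0.00171). On scaffolds the difference between the 22 rams left was -1.13 points (exact permutation test, p = 0.371), a test that the choice of rams by this same level makes void.

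**Figure D1:**
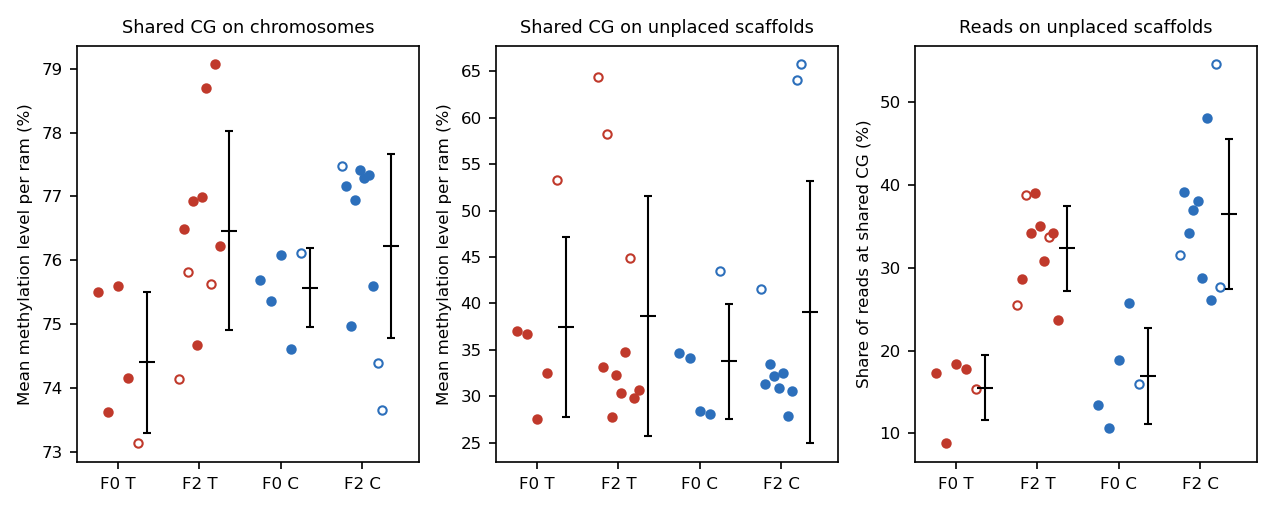
Mean methylation level (%) of shared CG cytosines on chromosomes (left) and on unplaced scaffolds (middle), and the share of reads at shared CG that lay on scaffolds (right, %), for each ram of F0 T, F2 T, F0 C and F2 C. Points are rams, open circles are the 8 rams above 40% on scaffolds, and bars are the mean ± SD. Chromosome levels overlap between generations, and the share of reads on scaffolds is 8.78% to 25.8% in F0 against 23.7% to 54.6% in F2.

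Cytosines were split into classes by the average of their F0 and F2 means, so that neither generation alone set the class. The lowest class passed the test: the 1558 cytosines at 0 to 10% averaged 3.80% ± 0.559 in F0 and 5.29% ± 1.59 in F2, 1.49 points higher (permutation test, adjusted p = 0.0048), with shifts of 1.57 points in the T line and 1.40 in the C line. No other class passed. The 7524 cytosines at 10 to 30% differed by 3.27 points (adjusted p = 0.385), the 21613 at 30 to 70% by 3.14 points (adjusted p = 0.279), the 15763 at 70 to 90% by 1.27 points (adjusted p = 0.385) and the 35697 at 90 to 100% by 0.328 points (adjusted p = 0.735). Scaffold cytosines made up 33.4% of the class at 10 to 30% and 22.5% of that at 30 to 70%, against 0.148% of the class at 90 to 100%.

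Which classes passed changed without the 8 rams. The shift at 90 to 100% became 1.46 points, that at 70 to 90% 2.73 points and that at 0 to 10% 0.616 points, each past the threshold. The shift at 10 to 30%, the class richest in the scaffold cytosines that the 8 rams were chosen by, turned to -0.192 points. At the upper end of the scale all 8 rams lay below the other rams of their generation, so that leaving them out raises F2, with 6 of them, more than F0, with 2. Among the 20694 cytosines that averaged 95% or more, the 22 other rams separated by generation, with 8 F0 rams at 95.9% to 97.3% and 14 F2 rams at 97.4% to 97.98%. With all 30 rams the same cytosines ranged from 93.6% to 97.3% in F0 and from 92.9% to 97.98% in F2. Among the 836 cytosines that averaged under 5%, F0 rams had 0.898% to 1.90% and F2 rams 1.53% to 3.99%. The 6 F2 rams among the 8 had 3.01% to 3.99% there and the other F2 rams 1.53% to 3.22%, whereas the 2 F0 rams among the 8 (1.61% and 1.07%) lay inside the range of the other F0 rams. Without the 8 rams the means were 1.35% ± 0.348 (n = 8) and 2.16% ± 0.464 (n = 14).

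The same was seen in reads. When every cytosine of every ram was thinned to 10 reads, the share of chromosome cytosines with all 10 reads methylated was 35.6% ± 5.31 in F0 and 39.7% ± 8.87 in F2, a difference of 4.10 points that did not pass (permutation test, p = 0.196). Without the 8 rams, which were the lowest of their generation at highly methylated cytosines, so that their choice helps to set these values, it was 7.48 points, and the share with 1 to 9 methylated reads was lower by a matching amount, -7.68 points. The share with no methylated read was 5.07% in both generations with all 30 rams, and without the 8 it was 0.202 points higher in F2.

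**Figure D2:**
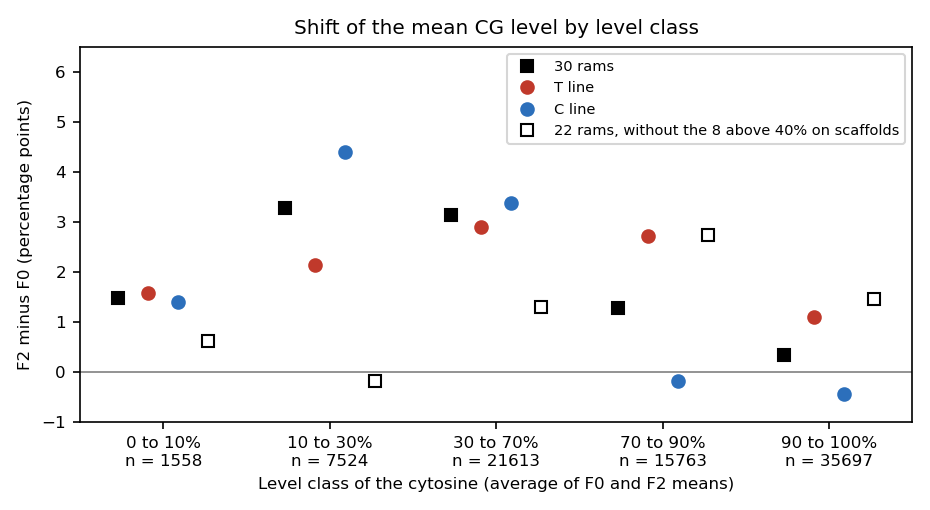
Difference of the mean CG level, F2 minus F0 (percentage points), for 5 classes of cytosines set by their average level. Filled squares are all 30 rams, red and blue circles the T and C lines, and open squares the 22 rams left without the 8 above 40% on scaffolds. The 30-ram shift is 3.27 points at 10 to 30% and 0.328 at 90 to 100%, whereas with 22 rams it is -0.192 and 1.46.

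The shift was spread over the chromosomes. All 27 had a higher mean level in F2, by 0.873 to 2.52 points with a median of 1.28, and 11 passed at an adjusted p of 0.05 (permutation test, Benjamini-Hochberg adjustment). In the T line all 27 were higher and 9 passed, and in the C line 23 were higher and 0 passed (smallest adjusted p = 0.715). With all 30 rams X had the highest shift, 2.52 points, from 63.3% ± 1.47 to 65.8% ± 2.36 (adjusted p = 0.0164). The next was chromosome 15, which went from 66.4% ± 1.21 to 68.4% ± 1.76 (2.003 points, adjusted p = 0.0164). The lowest shifts were those of chromosome 23 (0.944 points, adjusted p = 0.199) and chromosome 24 (0.873 points, adjusted p = 0.243). Relative to the other shared cytosines of the same ram, 0 of 27 chromosomes passed, so X and 15 are not set apart by this test. Without the 8 rams all 27 passed, with shifts of 1.34 to 2.20 points, and the order changed: chromosome 21 was highest and chromosome 10 lowest, X stood at 1.92 points, and chromosome 15 at 1.53 was below chromosomes 23 (1.58) and 24 (1.57). Those 8 were left out after seeing the data. They were the lowest of their generation at highly methylated cytosines, so their choice helps to set this count and these shifts. With summed reads only chromosomes 1 and 15 were lower in F2. Chromosome 15 turned to -1.19 points (adjusted p = 0.558) and chromosome 1 stood at 59.9% in F2 against 63.0% in F0 (adjusted p = 0.171). The others were higher, by 1.31 points on chromosome 19 up to 6.06 points on chromosome 14. Chromosomes 1 and 15 each held a dense stretch with levels near the scaffold mean of 35.6% in F0. At chr1:3000001-3100000 274 shared cytosines averaged 35.9% in F0, and at chr15:1-100000 273 averaged 34.6%. The part of these stretches in the summed-read values was not tested.

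Single cytosines were tested by a logistic model of the methylated and total reads of each ram that allows for extra spread between rams. A differentially methylated cytosine (DMC) had an adjusted p of at most 0.01 and a difference of at least 20 points between the generation means. There were 43 DMCs among the 82155 cytosines (0.0523%), 40 of them higher in F2 (0.0487%) and 3 lower. Without the limit on the size of the difference 62 passed (0.0755%). In general the F2 mean was above the F0 mean at 65.0% of cytosines, and 1013 cytosines differed by 20 points or more upwards and 720 downwards, whether or not they passed. The least difference of a DMC was 20.9 points, and the largest of a cytosine that passed on adjusted p alone was 19.4.

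The DMCs lay on 14 chromosomes, with 11 of the 43 on chromosome 2, which held 7890 of the 82155 cytosines tested, and 0 were on scaffolds or X. Within 1000 bases of another DMC were 19 of them, so that they formed 32 loci. The 40 that rose had intermediate levels in F0, 28.1% to 69.4% with a median of 53.4%, and reached 50.4% to 96.3% in F2 with a median of 82.4%, and F0 levels of 20 to 80% were found in 39.0% of all shared cytosines. Every DMC had the same sign in both lines, against 56.1% of all cytosines, 36 differed by 20 points or more in each line, and all 43 had an unadjusted p under 0.05 in each line. These counts describe cytosines that were chosen on both lines together. At the DMCs where all F2 rams stood at 0% the line p-values can be too small, as given below. Tested alone, each line gave 1 DMC (0.00122%), the same cytosine in both, chr21:40763348. Its mean coverage was 41.0 reads in F0 and 155 in F2. After adjustment 0 cytosines differed between the lines in their shift, with 2654 at an unadjusted p under 0.05 (3.23% of all tested). Across all shared cytosines the T and C shifts had a correlation of 0.333, where the points share libraries and depth. The F0 rams of the 2 lines were twins, so the founders' genotypes could enter both shifts, which was not tested. Of the 43 DMCs 25 also passed without the 8 rams, and all 43 kept their sign, with a size of at least 16.8 points.

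Reads per cytosine differed between the generations at some DMCs, and likewise at some of all shared cytosines. The mean coverage of the 2 generations was within 1.5 times at 33 of the 43 DMCs and at 77.6% of all shared cytosines. It was over 1.5 times higher in F2 at 4 DMCs and lower by as much at 6. All DMCs lay on chromosomes. Of the shared cytosines there, 1.57% had 1.5 to 2 times the F0 coverage in F2 (1 DMC) and 0.646% had more (3 DMCs). Another 12.7% had 0.5 to 0.667 times the F0 coverage (4 DMCs) and 1.02% had less (2 DMCs). Tested on the cytosines within that limit alone, 30 DMCs were found, all 30 among the 43. At a given DMC a change of base from C to T in a ram's genome would be read as an unmethylated cytosine, and no genotype was used here.

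Groups did not overlap at 7 of the 82155 cytosines (0.00852%), and at all 7 the F2 rams were above the F0 rams. Of these, 6 were DMCs, and 3 of the 6 stood side by side on chromosome 21. At chr21:40763348 F0 rams had levels of 50% to 71.0% (median 56.1%) and F2 rams 93.7% to 98.6% (median 96.5%). Even the lowest F2 ram was far above the highest F0 ram. The mean went from 57.5% ± 6.39 to 96.3% ± 1.49, by 40.5 points in the T line and 37.2 in the C line (logistic model, adjusted p = 5.21e-14). At chr21:40763260 F0 rams had 20.6% to 54.1% (median 35.3%) and F2 rams 61.2% to 83.0% (median 75.5%), and at chr21:40763216 they had 10.7% to 46.4% (median 31.1%) and 51.1% to 74.7% (median 69.2%). These differences were 39.3 points (adjusted p = 6.84e-08) and 37.4 points (adjusted p = 5.12e-07).

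The 3 cytosines, all on the minus strand and 132 bases from first to last, were also the DMCs with the largest rise in coverage. F0 rams had a mean of 31.5, 38.9 and 41.0 reads at them and F2 rams 127, 132 and 155. The F1 pools went with F0 on both measures, with levels of 34.9%, 35.1% and 54.6% and 32.8, 37.1 and 41.4 reads. Nearby cytosines had neither change to that extent. At offsets of -90 and -107 bases from the first DMC the level was 17.6 and 17.7 points higher in F2 (adjusted p = 0.198 and 0.208) with 35.5 and 34.1 reads per F2 ram, and at offsets of -199 and -315 bases the difference was 3.32 and 4.19 points. The part of the added reads in the level was not tested.

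**Figure D3:**
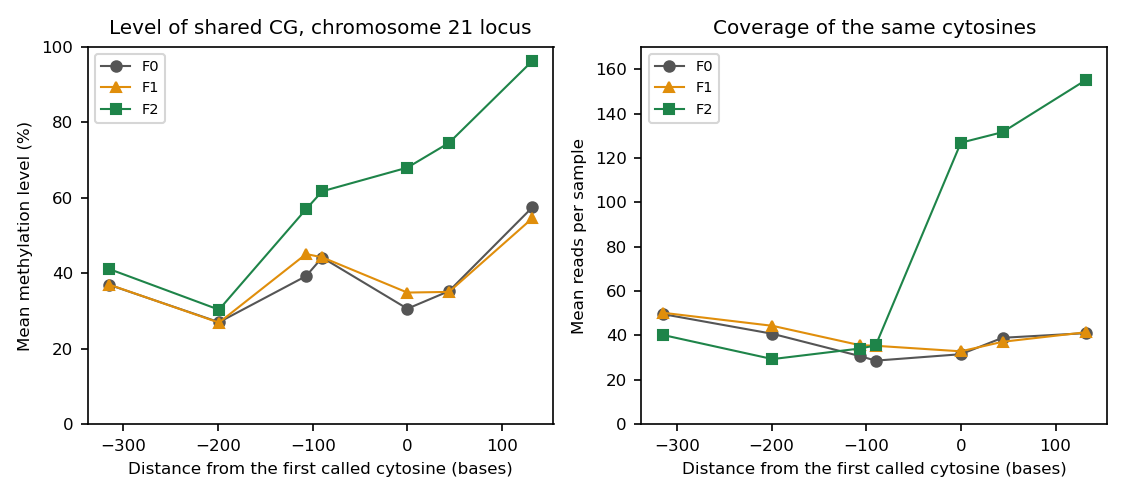
Mean methylation level (%, left) and mean reads per sample (right) of the shared CG cytosines around the 3 chromosome 21 DMCs, by distance in bases from the first of them, for F0 rams, F1 pools and F2 rams. F0 and F1 run together on both sides, while F2 is at 68.0%, 74.6% and 96.3% with 127 to 155 reads at the DMCs and at 29.3 to 40.2 reads at the other cytosines shown.

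The 3 DMCs without overlap elsewhere, named after their values were seen, were chr4:44630074, chr12:4668940 and chr12:72250795. At the first, F0 rams had 39.3% to 54.1% and F2 rams 54.5% to 91.1%, and coverage went the other way from chromosome 21, with 79.5 reads in F0 and 38.8 in F2. At chr12:4668940 the ranges were 48.4% to 76.5% and 86.2% to 100%, with 28.6 and 31.6 reads, a difference of 31.2 points (adjusted p = 1.21e-07). At chr12:72250795 they were 60.6% to 70.8% and 81.2% to 97.7%, with 38.4 and 29.7 reads, a difference of 24.3 points (adjusted p = 2.2e-06). On chromosome 12 the F1 pools lay in between, at 68.6% and 78.9%, and on chromosome 4 at 44.2%, below the F0 mean of 48.1%.

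By the naming rule, which took the 5 DMCs per direction with the largest shift in the line that moved less, the other 2 that rose were both on chromosome 9. At chr9:54616725 F0 rams fell into steps: 1 ram at 0%, 7 between 41.6% and 53.5%, and 2 at 91.0% and 92.6%. F2 rams had 65.0% to 100% with a median of 96.2%. The difference was 41.2 points (51.0% ± 26.2 to 92.2% ± 9.08, adjusted p = 0.00313), and coverage was 98.4 and 54.8 reads. Without the 8 rams this cytosine no longer passed (42.3 points, adjusted p = 0.0443). The study's own annotation covers only cytosines that it called between treatment and control, and there this position is intergenic. At chr9:69387714 F0 rams had 30.8% to 91.4% (median 47.9%) and F2 rams 75.8% to 100% (median 88.2%), a difference of 35.8 points (adjusted p = 0.000784) with 27.9 and 26.6 reads. Here too F0 rams fell into steps, with T 3 at 90.9%, C 4 at 91.4% and the others at 30.8% to 53.1%. T 3 and C 4 were also the 2 highest F0 rams at chr9:54616725.

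Fewer than 5 DMCs were lower in F2, and 2 of the 3 were at 0 there. Their number rested on single founders, with 0 lower DMCs left without F0 T 9, 1 without F0 T 23, F0 C 6 or F0 C 12, and 4 without F0 C 4. At chr2:116247263 all 20 F2 rams were at 0%, whereas 5 F0 rams were at 0% and the other 5 between 39.1% and 65.1% (26.8% ± 29.2, adjusted p = 0.00361). At chr16:42469560 all 20 F2 rams were again at 0%, and 5 F0 rams were at 0% and 5 between 37.0% and 55.9% (22.7% ± 24.4, adjusted p = 0.00503). The logistic model takes 1 spread factor over all rams, to which F2 rams all at 0% add nothing. The p-values of these 2 sites can thus be too small, also within each line. The F0 rams above 0 came from both lines at each site, and F1 pools ranged from 0% to 28.6% and from 0% to 50%. At chr3:94775469 levels were graded, with F0 rams at 55.1% to 85.7% (median 74.4%) and F2 rams at 27.6% to 63.9% (median 51.5%), a difference of -22.2 points (adjusted p = 0.00935). None of these 3 passed without the 8 rams (adjusted p = 0.0832, 0.0932 and 0.0178), where their differences were -19.4, -16.8 and -26.4 points.

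**Figure D4:**
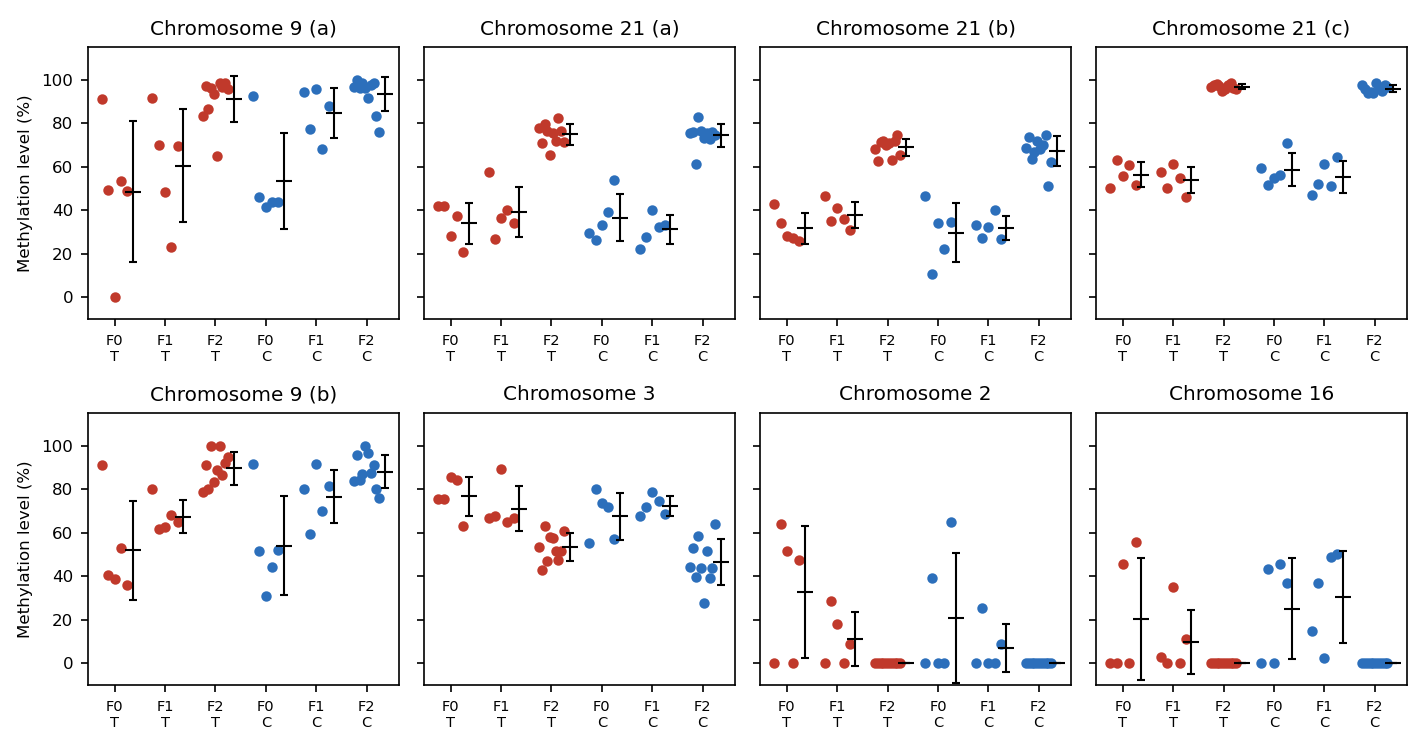
Methylation level (%) of each F0 ram, F1 pool and F2 ram at the 8 DMCs named by rule, with T in red and C in blue and bars for the mean ± SD. The top row shows chr9:54616725 (a) and, on chromosome 21, positions 40763260 (a), 40763216 (b) and 40763348 (c), and the bottom row chr9:69387714 (b), chr3:94775469, chr2:116247263 and chr16:42469560. On chromosome 21 F1 lies with F0 and all F2 rams lie above, and on chromosomes 2 and 16 all 20 F2 rams are at 0%.

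Besides chromosome 21, 7 loci held 2 or 3 DMCs that rose together, also named after their values were seen. At chr3:200068350-200069088 the 3 DMCs averaged 61.4% ± 10.4 in F0 and 86.9% ± 6.49 in F2, with F1 pools at 83.0%. At chr4:47070258-47070318 the 3 DMCs averaged 62.2% ± 6.95 and 86.9% ± 6.88, with F0 rams up to 68.8% and F2 rams from 70.8%, and F1 pools at 78.0%. At chr2:133816585-133816781 the means were 61.1% and 85.8%, at chr12:72250795-72250952 they were 59.3% and 83.6%. At chr2:63304840-63305014, a span of 3 shared cytosines of which 2 were DMCs, the 2 DMCs went from 61.9% to 85.9% and from 39.7% to 72.5%. The widest founders were those of chr2:36619353-36619463, where F0 rams ranged from 28.0% to 98.8% and F2 rams from 82.7% to 100%, and its 2 DMCs no longer passed without the 8 rams (adjusted p = 0.0502 and 0.0327). At chr1:264039590-264039726 levels went from 41.7% ± 8.54 to 71.8% ± 9.73, and the first of the 2 DMCs no longer passed without the 8 rams (adjusted p = 0.0190). The study's annotation puts its first cytosine in an L1MEd element, a LINE repeat, and in the promoter of LOC105604058, where promoter means a wide stretch upstream of the gene start. Mean coverage of the shared cytosines at these 7 loci was 26.6 to 41.7 reads in F2 and 32.1 to 57.6 in F0. Over the 43 DMCs, all of which were listed in F1, the pools lay between the F0 and F2 means at 40 and closer to F0 at 19. Since DMCs were chosen for a wide gap between F0 and F2, that choice by itself favours a place in between.

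Windows of 100 kb were sparse, since 19410 of them held a shared cytosine and only 96 held 20 or more. Of these 96, 95 had a higher mean in F2, and 0 passed an adjusted p of 0.01 (limma, 0%), with 5 at an unadjusted p under 0.05. The smallest adjusted p was 0.0338, at chr14:400001-500000, which went from 74.8% ± 7.71 to 84.2% ± 4.62. Of the 35 chromosome windows 34 were higher with 30 rams and 30 without the 8 rams. Of the 61 scaffold windows all were higher with 30 rams, and 9 without the 8, a count that the choice of these rams by their scaffold level helps to set.

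With 10 or more cytosines as the limit, 10 of 1096 windows passed (limma, 0.912%), and all 10 were on chromosomes and higher in F2. Of the 1009 chromosome windows of this size 804 were higher in F2. The window chr21:40700001-40800000 averaged 31.9% ± 4.02 in F0 and 44.2% ± 4.99 in F2 over 16 cytosines (adjusted p = 0.000161), and it holds the 3 DMCs. The windows chr2:63300001-63400000 (72.5% to 85.5%, adjusted p = 0.000242) and chr2:133800001-133900000 (67.4% to 78.5%, adjusted p = 0.000659) also hold DMC loci named above. At chr25:2500001-2600000, F0 rams averaged 61.5% to 86.9% (median 72.0%) and F2 rams 74.7% to 92.5% (median 84.1%), a difference of 11.3 points (adjusted p = 0.00963).

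Outside CG the generations separated. At the 3491985 CHH cytosines listed for both, F0 rams averaged 0.378% to 0.409% (median 0.389%) and F2 rams 0.494% to 0.551% (median 0.520%). At the 827756 CHG cytosines F0 rams averaged 0.391% to 0.423% (median 0.404%) and F2 rams 0.517% to 0.574% (median 0.542%). Every F2 ram was above every F0 ram in both contexts. The means were 0.390% ± 0.0110 and 0.519% ± 0.0158 for CHH and 0.405% ± 0.0113 and 0.539% ± 0.0158 for CHG (permutation tests, p = 2e-05 each, the smallest that 100000 resamples can give). Both lines gave an exact permutation p of 0.000666 in each context, the smallest possible with 5 against 10 rams, with shifts of 0.136 (T) and 0.133 (C) points for CHG and 0.130 and 0.127 for CHH. Set against the mean of his own grandsons, each F0 ram was lower. Each line then gave p = 0.0625 in both contexts (exact sign-flip test, the smallest possible with 5 pairs).

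The F1 pools stood with F0. On cytosines listed in all 3 generations they averaged 0.397% for CHG against 0.405% in F0 (permutation test, p = 0.0431) and 0.541% in F2, and 0.383% for CHH against 0.390% (p = 0.109) and 0.519%. The F2 shift was found on all 27 chromosomes without overlap of the groups, between 0.124 and 0.152 points for CHG and between 0.124 and 0.137 for CHH, and on scaffolds (0.122 and 0.111 points). At the cytosines below 10% in every ram, which were 771019 of CHG and 3268331 of CHH, the shifts were 0.112 and 0.108 points. This limit uses the levels compared and the depth of each ram, so it helps to set these shifts and the overlap. Here the ranges overlapped, since the lowest F2 ram was at 0.273% for CHG and 0.268% for CHH. The few non-CG cytosines that averaged 50% or more went the other way, from 70.3% ± 1.82 to 69.1% ± 2.87 at 436 CHG and from 69.6% ± 1.28 to 68.8% ± 3.11 at 1581 CHH, which was not tested.

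Because these levels include unconverted cytosines, the CG comparison was repeated with each level corrected as (level - CHH) / (1 - CHH), where CHH is the mean CHH level of the ram as a fraction. The F2 minus F0 difference of the mean CG level was then 1.51 points (permutation test, p = 0.00088). The part of bisulfite conversion in the non-CG difference was not tested.

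**Figure D5:**
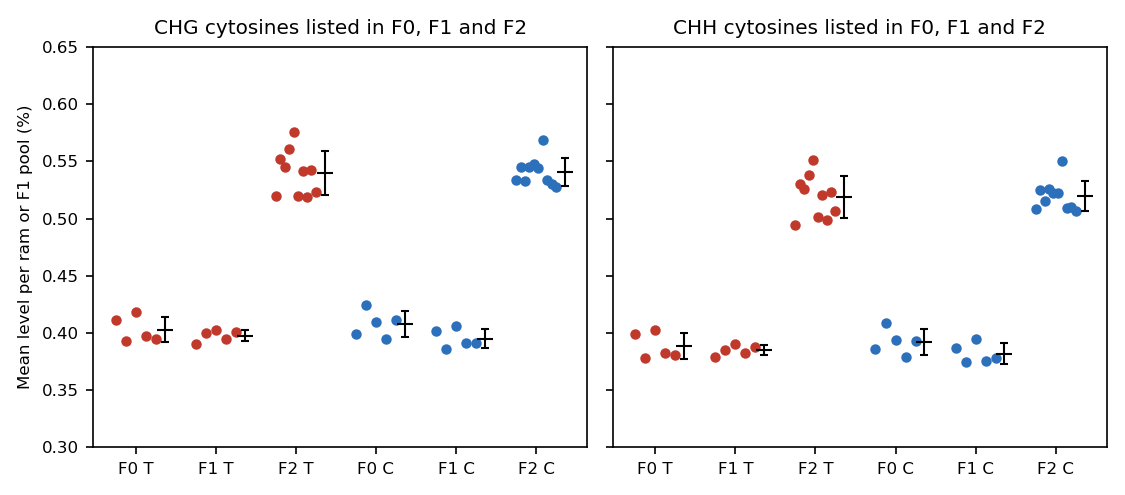
Mean level (%) per F0 ram, F1 pool and F2 ram at CHG (left) and CHH (right) cytosines listed in all 3 generations, T in red and C in blue, with the mean ± SD, on axes that do not start at 0. F0 rams and F1 pools reach at most 0.424% for CHG and 0.409% for CHH, and F2 rams start at 0.519% and 0.494%.

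On chromosomes the SD between rams at a cytosine had a median of 6.80 points in F0 and 9.11 in F2, and without the 8 rams the medians were 5.73 and 5.65. The root mean square of these SDs was higher in F2 both with all rams (12.7 and 14.5 points) and without the 8 (12.4 and 13.3). On scaffolds the medians were 11.6 and 15.2 points with all rams and 8.40 and 5.39 without the 8, where the choice of rams by their scaffold level helps to set the fall. These SDs include counting error, and F0 and F2 had different numbers of rams.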

How the data were processed

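Whole-genome bisulfite sequencing of semen DNA was analysed for 10 F0 rams, 10 F1 pools and 20 F2 rams. The deposited files hold raw counts per cytosine and sample, made by the authors with Trim Galore, Bismark with Bowtie2 on Oar_rambouillet_v1.0, removal of duplicates and methylKit, with strands apart and at least 10 reads in every sample of a generation. A step that removes sequence variants is not given in the sources used here. The 120 columns of unmethylated reads were not used. RNA counts of the F2 rams, deposited without normalization, served for the marker check only, with 805831 to 13137757 counts per ram. Levels were averaged per ram with equal weight per cytosine, and a cytosine with 10 reads resolves steps of 10 points. Means were compared by 2-sided permutation tests, single cytosines by a quasi-binomial logistic model (F test, SciPy 1.17.1) and windows by limma 3.58.1 (R 4.3.3), with Benjamini-Hochberg adjustment. Groups came from the labels. Tests were tried on simulated data: among 82155 cytosines the logistic model recovered 60 of 100 shifted by 40 points and 13 of 100 shifted by 20, with 0 false calls. Simulated rams were drawn independently at each cytosine, without kinship or shifts common to the cytosines of a ram. The number of false calls in the real data can therefore differ. At 96 simulated windows limma found 0 of 12 shifted by 3 points and 2 of 12 shifted by 8. Named cytosines were the 5 DMCs per direction with at least 20 points in each line and the largest shift in the lesser line, named windows the 4 per direction by the same order, and named chromosomes the 2 highest and 2 lowest. The members, lists and tests were chosen with earlier results of these data known. No gene was tested, since no full gene annotation of the files' build was at hand, and no sequence is printed.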

Additional observations from a re-analysis of the deposited data

Results flagged for a closer look

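In 52 groups of 5 or 10 samples, 5 values lay far from the rest of their group by Dixon's test, and chance alone flags about 1 in 20 groups. An F2 C ram, grandson of ram 12, had the highest non-CG levels of its group, 0.568% for CHG and 0.550% for CHH. At chr9:54616725 the F0 C ram 4 had a level of 92.6%, where the other F0 C rams had 41.6% to 46.0%, and an F2 T grandson of ram 9 had 65.0%, the lowest of its group. At chr21:40763260 an F2 C grandson of ram 6 had 61.2%, the lowest F2 level there and still above all F0 rams.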

How the results depend on the processing

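The mean CG shift turned to -4.77 points with summed reads (T -4.38, C -5.16), and F2 minus F1 to -6.23. Summed within regions, a setting chosen after seeing the data, it was 0.819 points on chromosomes and 2.94 on scaffolds, past the threshold in neither. At the 5938 cytosines with 20 reads in every ram it was 2.72 points (T 1.56), not past it, and the difference between lines was -2.33. On scaffolds alone, also chosen after seeing the data, it was 3.24 points (T 1.20), not past it, and the difference between lines -4.07. Leaving out 1 ram each gave 0.739 to 1.44 points in the C line, past the threshold without F0 C 24 (1.44), 1 F2 C grandson each of ram 6 (1.27) or ram 12 (1.24), 1.41 to 1.73 for both lines and 1.79 to 2.23 for T. The causes were not tested, beyond the read shares given above.

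DMCs were 1733 by a likelihood-ratio test on summed reads, which gave 837 false calls on simulated data, 54 by limma (38 shared with the 43), 6 with 20 reads in every ram (fewer cytosines tested), 28 at 25 points and 32 to 47 with 1 F0 ram left out. In the T line the 1 DMC became 2918, 7 and 4 by the first 3 of these, and in the C line 2626 and 5 by the first 2; leaving out 1 F0 ram gave 1 to 2 (2 without T 3) and 1 to 5 (5 without C 4). Classes that passed were 1, and 3 without the 8 rams, where the 10 to 30% class turned to -0.192 points. Chromosomes that passed were 11, against 23 with summed reads, 6 with 20 reads (of the 9 units left to test) and 27 without the 8 rams. With summed reads all that passed were higher in F2, while chromosome 15 turned to -1.19 points and chromosome 1 to -3.15. Windows were 0, against 10 at 10 cytosines, 1 with summed reads, 2 without the 8 rams (36 DMCs then) and 0 to 1 with 1 F0 ram left out (1 without T 9). The 8 rams were left out after seeing the data, on a level that goes with that at highly methylated cytosines, so this choice helps to set these counts.

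Pairing each F0 sire with the mean of his F2 rams as a replicate block left the 1.54 points at p = 0.00195 (exact sign-flip test, the smallest possible with 10 pairs). Within a line 5 pairs cannot go below p = 0.0625, the value found for CG (T 1.99 points, C 1.09), for CHG (T 0.136, C 0.133) and for CHH (0.130, 0.127). With the block limma gave 61 DMCs (T 5, C 4) and 0 windows. Among the sires of his own line every F0 ram correlated best with his own F2 rams, at 0.0751 to 0.357 across chromosome cytosines. The grandsons of his twin, in the other line, were not compared. On autosomes alone the C-line shift was 0.641 points, not past the threshold as before. Autosomes alone, thinning to 10 reads, correction by the CHH level, leaving out cytosines over 100 reads, and the F1-based classes changed no call on the mean or the classes. Tests on genes were not run for want of a full annotation of the build. In the simulated data most shifts of 20 points at single cytosines were missed. Such shifts lie at the size limit of a DMC, so depth and spread need not account for all the misses.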
